A study of Rattus norvegicus with 15 samples.

Results

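MicroRNA levels in rat sciatic nerve 1 day after injury were compared with those in uninjured nerve, over the 210 of 350 miRNAs on the array that the scanner software called detected on all 3 arrays of either group. The 6 arrays compared, of 15 in the series, each held total RNA of the nerve from adult males. Day 0, labelled 0h, is normal nerve without crush, and day 1 is nerve taken 1 day after the injury, with 3 arrays in each group. The labels give no genotype, strain or drug for either group and do not say whether the replicates came from separate animals, so each p-value reflects only how far these samples differed, which may be technical. They also describe the injury in different ways. The series text gives a resection with proximal tissue of 0.5 cm, the treatment protocol speaks of a crush and of about 0.5 mm of the damaged part, and sample labels name the tissue both proximal stumps and injury site. Detection was complete on all 6 arrays for 191 of the 210, on all 3 of day 0 alone for 7 and on all 3 of day 1 alone for 12. On none of the 6 arrays were 113 miRNAs detected. A further 27 were detected on some arrays without filling either group and were left out of the tests.

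A miRNA is cut from a hairpin transcript, and one of its arms guides the Argonaute protein to messenger RNAs that pair with the seed, bases 2 to 8 of the miRNA. miRNAs with the same seed form a family and can repress the same messages. After injury the cut axons of a peripheral nerve degenerate, Schwann cells leave the myelinating state, and neutrophils and later macrophages enter the tissue. Several of the miRNAs on the array mark these cells: miR-223 is abundant in myeloid cells, miR-142 in all blood lineages, miR-338 in myelinating glia and miR-124 in neurons.

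The mature sequences of the miRNAs that the results turn on are given below 5′ to 3′ from RefSeq, with the seed in capitals, and 87.1% of the 210 tested miRNAs matched an entry there. The first set holds the rises of injury-induced and blood cell miRNAs, with both arms of the miR-21 and miR-142 hairpins.
miR-31: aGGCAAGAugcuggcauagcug
miR-21: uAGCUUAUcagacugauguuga
miR-21*: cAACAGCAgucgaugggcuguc
miR-223: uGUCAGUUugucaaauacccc
miR-142-3p: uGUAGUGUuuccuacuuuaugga
miR-142-5p: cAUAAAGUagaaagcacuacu

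The next set holds miRNAs that share a seed and moved the same way. Both members of the pairs miR-132 with miR-212 and miR-221 with miR-222 rose, and all 3 members of the miR-196 family fell.
miR-132: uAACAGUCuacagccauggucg
miR-212: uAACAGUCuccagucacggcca
miR-221: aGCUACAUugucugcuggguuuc
miR-222: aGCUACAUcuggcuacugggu
miR-196a: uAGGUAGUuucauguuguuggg
miR-196b: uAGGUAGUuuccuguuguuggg
miR-196c: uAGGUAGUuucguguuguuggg

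The last set holds miRNAs that share a seed but were called in opposite directions. Of the 24 seeds carried by at least 2 tested miRNAs, 3 had a member that rose and a member that fell.
miR-146a: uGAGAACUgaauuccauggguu
miR-146b: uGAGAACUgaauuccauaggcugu
miR-15b: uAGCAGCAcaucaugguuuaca
miR-195: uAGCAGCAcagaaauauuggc
miR-322: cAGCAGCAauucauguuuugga
miR-92a: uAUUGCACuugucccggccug
miR-32: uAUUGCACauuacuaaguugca

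Total miRNA signal was 127675 to 149221 intensity units on the day 1 arrays against 179070 to 195467 on the day 0 arrays, and 58% to 65.1% of the 350 miRNAs were detected per array on day 1 against 57.1% to 63.4% on day 0. The log2 levels of the tested miRNAs correlated between arrays of a group with r of 0.969 to 0.992 on day 0 and 0.993 to 0.994 on day 1. Each group lay on a slide of its own that was scanned separately, so slide and group cannot be told apart. The bright corner control spots read 86.1 to 113 on day 1 and 1618 to 2320 on day 0, and the part of this difference in the results was not tested. Levels are log2 values in which 0 is the 75th percentile of the array, computed from the 191 that all 6 arrays detected, so a change is relative to that percentile. Just outside the rule, miR-130b was detected on 2 day 1 arrays and no day 0 array, with mean levels of -7.31 on day 0 and -5.15 on day 1, and miR-377 on 2 day 0 arrays and no day 1 array, with means of -5.26 and -6.17. Just inside it, let-7d* was detected on all 3 day 0 arrays and 2 day 1 arrays, with means of -5.43 and -6.48.

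More large rises than large falls were fitted on day 1. Of the 210 miRNAs, 46 rose and 49 fell on day 1 (limma, adjusted p under 0.05), which is 21.9% and 23.3%, or 45.2% in all. More than 2-fold changes were fitted for 18 of the rises and 3 of the falls, or 2 of the falls with miR-211, which no day 1 array detected, at its bound of 1.84-fold. The 4 rises with no detection on day 0 have bounds over 2-fold. Detection was complete on day 1 alone for the large rises miR-31, miR-21*, miR-132, miR-760-3p, miR-18a, miR-188 and miR-327. It was complete on day 0 alone for the large falls miR-211, miR-32 and let-7d*. These were tested only through the group where they were higher, so the filter partly set the counts of large changes. The median size of the change was 0.81 among rises and 0.48 among falls on the log2 scale. The median over all tested miRNAs was -0.03. The 3 day 1 arrays lay wholly outside the range of the 3 day 0 arrays for 114 miRNAs (54.3%), above it for 52 (24.8%) and below it for 62 (29.5%). The split depended on the processing: without scaling 26 rose and 110 fell, with a median of -0.39, and with all 15 arrays in both the scaling and the fit 33 rose and 94 fell. Normexp background correction gave 73 rises and 37 falls. Leaving out day 0 replicate 2, day 1 replicate 1 or day 1 replicate 3 lowered the 95 calls to 44, 48 and 48, whereas the other 3 arrays left 75 to 92. Counting a miRNA that an alternative did not test as a lost call, 16 rises and 10 falls kept their call in all 21 alternatives. The alternative restricted to the 191 miRNAs detected on all 6 arrays did not test miR-31, miR-21*, miR-132 or miR-760-3p, for example.

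**Figure D1:**
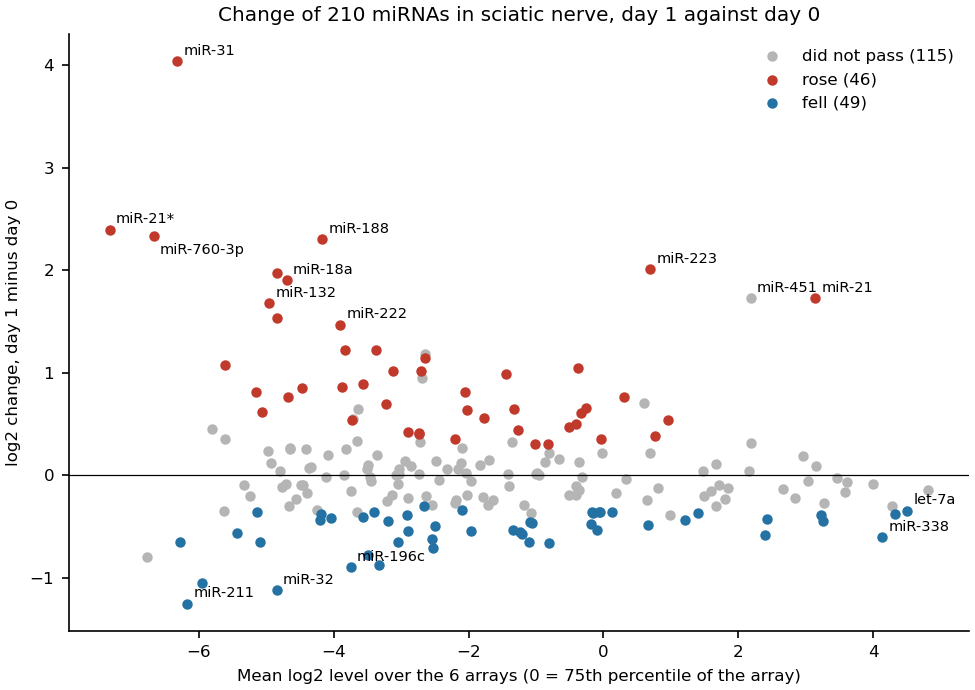
Change from day 0 to day 1 (y axis, log2) of each of the 210 tested miRNAs against its mean log2 level over the 6 arrays (x axis), with 46 that rose in red, 49 that fell in blue and the others in grey. The fitted values reach 4.04 for miR-31 and -1.25 for miR-211, which each went undetected in a whole group and have bounds of 9.12-fold and 1.84-fold, and most of the largest rises lie at low signal, except miR-21 and miR-223.

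All 3 tested miRNAs of the injury-induced list rose, against 21.9% of all tested miRNAs. miR-31 and miR-21* were tested only because all 3 day 1 arrays detected them, while no day 0 array did. Their part in this count was largely set by the filter. miR-31, which is induced in many injured tissues, was detected on 0 of 3 day 0 arrays and on 3 of 3 day 1 arrays. Its log2 level was -7.98, -8.52 and -8.52 on the day 0 arrays, where the last 2 are the floor of the scale, and -4.35, -4.48 and -4.07 on the day 1 arrays. Day 1 over day 0 gave a bound of 9.12-fold. That bound compares the day 1 mean with the lowest signal of a detected miRNA on each day 0 array. Where miR-31 itself was higher there, its own level was used. The bound is no guaranteed minimum. On day 0 replicate 3 the lowest detected level is the floor, and miR-132 went undetected on day 0 at levels above the lowest detected ones. The adjusted p of 1.6e-05 tests the fitted change, not the bound, and 2 of the 3 day 0 values are the floor. The size near background rests on the processing: the log2 change was 0.67 with normexp background correction and 5.37 with a lower floor, and it passed in both. Even so, miR-31 made up only 0.0149% of the miRNA signal on day 1.

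miR-21, a miRNA that restrains Pdcd4, gave the largest gain in signal. Its log2 levels were 2.18, 2.26 and 2.39 on day 0 and 4.16, 3.83 and 4.04 on day 1, so the groups were separated by more than their own ranges. The change was 1.73 ± 0.12 (SE, n = 3 per group; adjusted p = 8.76e-05), or 3.32-fold. Its share of the miRNA signal went from 1.30% ± 0.0407 (SD, n = 3) to 4.69% ± 0.775. The other arm of the hairpin, miR-21*, was at the floor of -8.52 on all 3 day 0 arrays and at -5.95, -6.34 and -6.08 on day 1. The bound for miR-21* was 2.57-fold higher on day 1, although 1 of its 4 probes gave a change of -0.72. The adjusted p of 1.78e-05 tests the fitted log2 change of 2.40, and the floored day 0 values add no spread to it.

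The leukocyte list followed, with 3 of 5 tested members that rose and none that fell, against 21.9% and 23.3% of all tested miRNAs. miR-223, which neutrophils and other myeloid cells carry in large amounts, had log2 levels of -0.40, -0.27 and -0.27 on day 0 and 1.98, 1.29 and 1.84 on day 1. The lowest day 1 array was thus far above the highest day 0 array, and the rise was 2.01 ± 0.18 (SE; adjusted p = 0.000398), or 4.03-fold. Both arms of miR-142, which is transcribed in blood cells of all lineages, rose together. miR-142-3p went from -0.96, -0.84 and -0.89 to 0.16, -0.01 and 0.29, a change of 1.04 ± 0.11 (adjusted p = 0.000643). miR-142-5p changed by 1.22 ± 0.14 (adjusted p = 0.001). For miR-150, a miRNA of mature lymphocytes, the value was 0.13 ± 0.11 and did not pass (adjusted p = 0.365). The summed signal of the 5 tested leukocyte miRNAs was 1033 to 1163 intensity units on day 0 and 1782 to 2273 on day 1, before scaling. In RNA of a whole tissue, more cells of a type and more RNA per cell cannot be told apart.

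**Figure D2:**
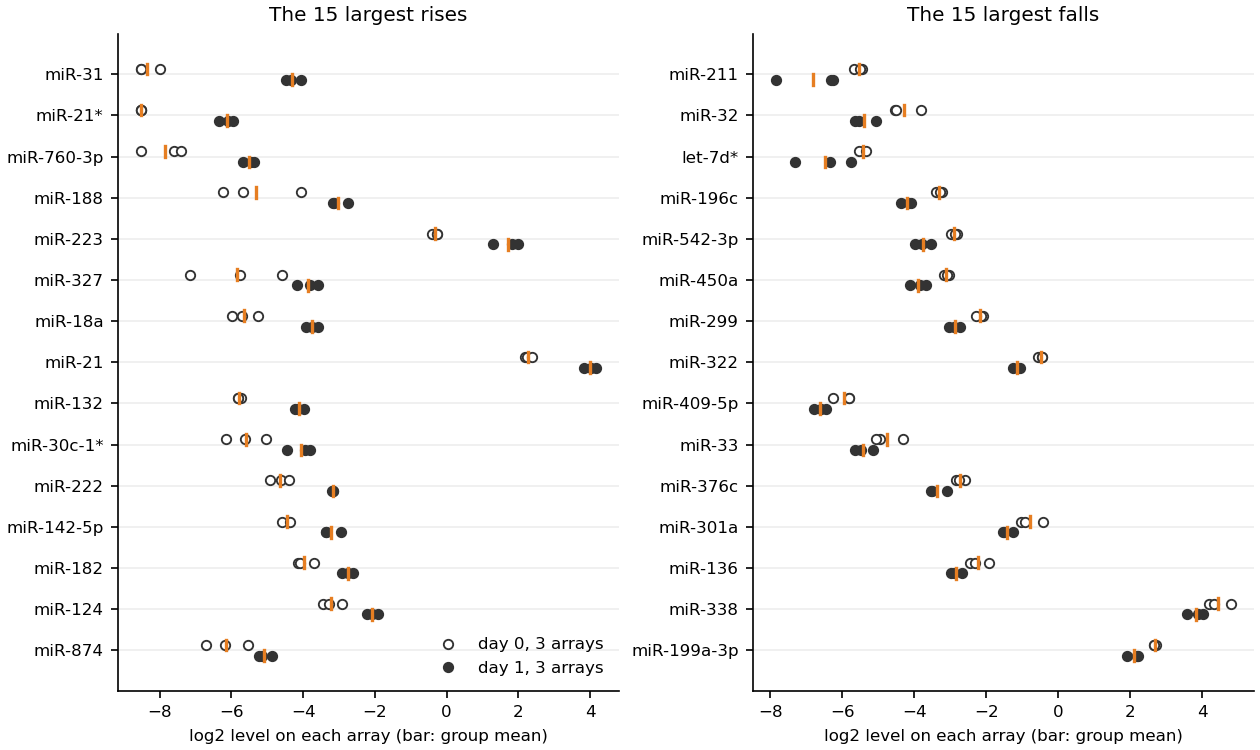
The log2 level (x axis) on each day 0 array (open circles) and day 1 array (filled circles) of the 15 largest rises (left) and 15 largest falls (right) whose groups do not overlap, with the group mean as a bar. miR-188 and miR-327 have wide day 0 spreads, with replicate 3 highest, whereas the day 0 arrays of miR-223, miR-21 and miR-132 lie close together.

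Both miRNAs of the CREB-induced list rose, against 21.9% of all tested miRNAs, but miR-132 was tested only because all 3 day 1 arrays detected it. miR-132 and miR-212 are transcribed together, and their locus is a target of the factor CREB in active neurons. miR-132 was not detected on day 0, with levels of -5.73, -5.83 and -5.82, and reached -4.23, -4.13 and -3.98 on day 1. Its bound was 3.20-fold higher (adjusted p = 4.59e-05 for the fitted change). miR-212 was detected on all 6 arrays and rose by 0.69 ± 0.13 (adjusted p = 0.00781), though without scaling its change was 0.33 (adjusted p = 0.0506).

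miR-221 and miR-222, neighbours on the X chromosome that repress the cell cycle inhibitor p27 (Cdkn1b), also rose together. miR-221 went from -2.01, -1.96 and -1.86 to -0.90, -0.96 and -1.02, a change of 0.99 ± 0.10 (adjusted p = 0.000438). For miR-222 the day 0 arrays read -4.91, -4.61 and -4.40 and the day 1 arrays -3.16, -3.18 and -3.18, a change of 1.47 ± 0.14 (adjusted p = 0.000438). All 6 arrays of both miRNAs fell into separate ranges by group, and the calls held in all 21 alternatives.

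The miR-17-92 cluster, known for promoting proliferation, rose as a whole. In the GRCr8 annotation 6 tested miRNAs map to its cluster on chromosome 15, and all 6 rose, against 21.9% of all tested miRNAs. Among them, miR-18a was tested only because all 3 day 1 arrays detected it. miR-18a gave the largest change, from -5.27, -5.69 and -5.99 on day 0, where it was detected on 1 array, to -3.91, -3.76 and -3.57 on day 1 (1.90 ± 0.19; adjusted p = 0.000509). The other members had smaller values: miR-17-5p changed by 0.64 ± 0.11, miR-20a by 0.61 ± 0.10, miR-19a by 0.54 ± 0.16, miR-19b by 0.50 ± 0.10 and miR-92a by 0.47 ± 0.11 (adjusted p of 0.00354 to 0.0326). The mature miR-17-5p, miR-19b and miR-92a also match hairpins of the related cluster on the X chromosome, so their values cannot be assigned to 1 locus.

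Among the related clusters the pattern was mixed. miR-93 and miR-106b, from the cluster in chromosome 12, rose by 0.56 ± 0.11 and 0.31 ± 0.10 (adjusted p = 0.00969 and 0.0419), and their neighbour miR-25 gave 0.22 ± 0.12 (adjusted p = 0.175). The X-linked miR-363 and miR-20b-5p gave -0.19 ± 0.16 and -0.08 ± 0.17 (adjusted p = 0.367 and 0.725). Over all 12 tested members of the list, 8 rose and 1 fell, against 21.9% and 23.3% of all tested miRNAs. Their median change was 0.48, against -0.03 for all tested miRNAs. Calls in this family were less firm than that of miR-18a. Without day 0 replicate 2 the adjusted p of miR-19b was 0.0501 and that of miR-92a 0.0605, the call of miR-19a also ended without day 1 replicate 2 or 3 (up to 0.092), and that of miR-106b ended whichever array was left out (0.052 to 0.149). Without scaling miR-106b changed by -0.058, and 1 member of the list rose and 2 fell.

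The member of this list that fell was miR-32, which has the seed of miR-92a printed above. Its log2 levels were -4.55, -4.50 and -3.82 on day 0 and -5.64, -5.06 and -5.53 on day 1. Only 2 day 1 arrays detected miR-32, so it was tested through day 0 alone. Its 4 probes all lay below 0 but ranged from -1.16 to -0.003. The fall was -1.12 ± 0.24 (adjusted p = 0.0111), while miR-92a went from -0.77, -0.75 and -0.71 to -0.40, -0.30 and -0.12. The other miRNAs with this seed, miR-25 and miR-363, lay between them.

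The second seed with opposite calls belongs to miR-146a and miR-146b, which NF-kB induces and which target the adaptor proteins Traf6 and Irak1. miR-146a fell from -0.01, 0.00 and 0.16 to -0.35, -0.38 and -0.54, a change of -0.48 ± 0.11 (adjusted p = 0.0125). miR-146b rose from -0.26, 0.00 and 0.01 to 0.63, 0.70 and 0.72, a change of 0.77 ± 0.11 (adjusted p = 0.00224). The groups were separate for both, in opposite directions, and both calls held in all 21 alternatives.

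The third such seed is that of miR-15, miR-16 and their relatives, which target cyclins. miR-15b rose by 0.39 ± 0.10 (adjusted p = 0.0249) and miR-195 fell by 0.43 ± 0.11 on the log2 scale (adjusted p = 0.0216). Each of these calls ended without day 0 replicate 2 or 3 or day 1 replicate 1 or 3, with adjusted p up to 0.0865 and 0.0713. miR-16 gave -0.02 ± 0.10 (adjusted p = 0.889) and miR-497, a neighbour of miR-195, -0.24 ± 0.13 (adjusted p = 0.16).

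miR-322, which carries the same seed, lies in a cluster on the X chromosome. From this cluster 5 of 6 tested miRNAs fell, against 23.3% of all tested miRNAs. miR-322 itself went from -0.55, -0.44 and -0.44 to -1.13, -1.05 and -1.25, a change of -0.66 ± 0.10 (adjusted p = 0.00269). Its other arm, miR-322*, changed by -0.55 ± 0.13 (adjusted p = 0.0148). Further along the cluster, miR-542-3p went from -2.97, -2.82 and -2.88 to -3.78, -3.53 and -3.97 (-0.87 ± 0.13; adjusted p = 0.00269). miR-450a changed by -0.78 ± 0.13 (adjusted p = 0.00478) and miR-542-5p by -0.45 ± 0.15 (adjusted p = 0.0448). Of the 6, miR-503, also a repressor of the cell cycle, did not pass, at -0.06 ± 0.15 (adjusted p = 0.768). Without day 0 replicate 2 the calls of miR-322* and miR-542-5p ended (adjusted p up to 0.0609 and 0.143), and that of miR-542-5p also ended without day 0 replicate 3 or day 1 replicate 1 or 3. The median change of the 6 was -0.61.

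**Figure D3:**
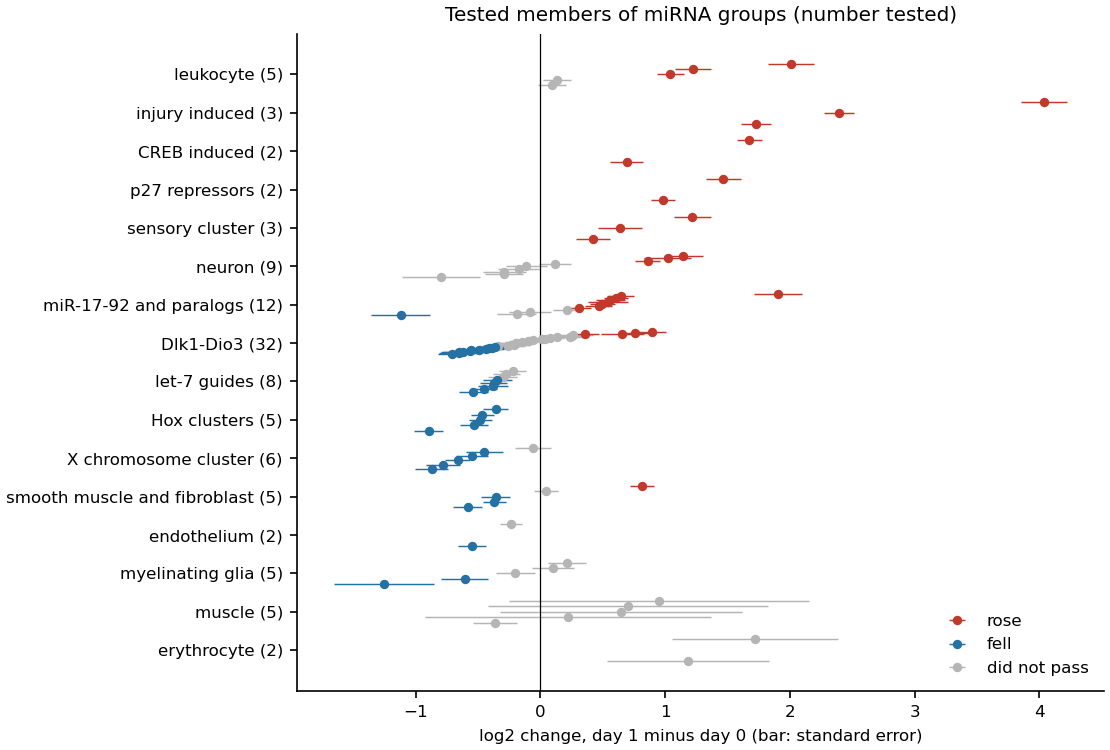
Change from day 0 to day 1 (x axis, log2, with the standard error) of each tested member of 16 groups of miRNAs (y axis, number tested in brackets). The leukocyte, CREB-induced and p27-repressing groups hold only rises among their calls and the let-7, Hox and X chromosome groups only falls. The muscle and erythrocyte groups have no call, and all their members but miR-499 have wide errors.

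The miRNAs encoded in the Hox clusters fell without exception. They are transcribed beside the Hox genes, which give cells their position along the body axis. All 5 tested members passed as falls, against 23.3% of all tested miRNAs. Their median change was -0.48, against -0.03 for all tested miRNAs. miR-196c fell most, from -3.40, -3.22 and -3.28 to -4.09, -4.15 and -4.36 (-0.90 ± 0.11; adjusted p = 0.00113), though 1 of its 4 probes gave 0.50. miR-196b and miR-196a changed by -0.53 ± 0.11 and -0.46 ± 0.09 (adjusted p = 0.0111 and 0.00928). Short probes may not tell these relatives apart. miR-10b went from 0.88, 0.88 and 0.93 to 0.37, 0.49 and 0.39 (-0.48 ± 0.09; adjusted p = 0.00742), and miR-10a-5p changed by -0.36 ± 0.10 (adjusted p = 0.028). The call of miR-10a-5p ended on leaving out any array but day 1 replicate 2 (adjusted p up to 0.0865), and without day 0 replicate 2 the adjusted p of miR-196a was 0.05 and that of miR-196b 0.0524.

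All 8 tested let-7 guide strands, which hold cells in the differentiated state, had a change below 0. Of these 5 fell, against 23.3% of all tested miRNAs. Short probes may not tell these guide strands apart, so they may not be 8 separate readings. By signal, which cannot be read as abundance across probes, they took a large part of each array: on day 0, let-7a, let-7f and let-7c held 6.90%, 6.16% and 5.82% of the miRNA signal. miR-98 changed most, from 0.13, 0.11 and 0.29 to -0.35, -0.21 and -0.52 (-0.54 ± 0.12; adjusted p = 0.0123). let-7b, let-7f, let-7e and let-7a changed by -0.45 ± 0.11, -0.38 ± 0.12, -0.37 ± 0.11 and -0.34 ± 0.12 (adjusted p of 0.0151 to 0.0489). let-7c, let-7i and let-7d gave -0.30 ± 0.12, -0.27 ± 0.11 and -0.22 ± 0.11 and did not pass, although none of their day 1 arrays overlapped day 0 and let-7c passed without day 1 replicate 2 (-0.38; adjusted p = 0.0373). Of the 5 calls only that of miR-98 held with every array left out in turn. The others ended without day 0 replicate 2 or day 1 replicate 1 or 3 (adjusted p up to 0.142), those of let-7a, let-7e and let-7f also without day 0 replicate 3, and those of let-7a and let-7f without day 0 replicate 1. The change of let-7a was 0.046 under quantile normalisation and 0.039 in the deposited values, and in each of these 2 settings 2 of the 8 fell, while all 8 fell without scaling. The passenger let-7d* changed by -1.05 ± 0.35 near the detection limit (adjusted p = 0.0472). Its call ended without day 0 replicate 2 or 3 or day 1 replicate 1 or 3 (up to 0.114), its change was -0.63 without day 1 replicate 1, and normexp turned its sign (0.14).

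Schwann cell and other glial miRNAs fell in part. miR-338, whose family promotes myelination, had log2 levels of 4.19, 4.33 and 4.80 on day 0 and 3.89, 4.03 and 3.58 on day 1. Its share of the signal went from 5.89% ± 0.982 (SD, n = 3) to 4.13% ± 0.409, and the change was -0.61 ± 0.19 (adjusted p = 0.0419). Without day 0 replicate 2 or 3 or day 1 replicate 1 or 3 it did not pass (adjusted p up to 0.126). miR-211, which is hosted by Trpm1 and known from pigment cells of the neural crest, was the only tested miRNA detected on all 3 day 0 arrays and no day 1 array. It read -5.69, -5.46 and -5.50 on day 0 and -6.25, -6.32 and -7.84 on day 1, with a bound of 1.84-fold lower (adjusted p = 0.0419 for the fitted change). That call ended without day 0 replicate 2 or 3 (up to 0.079), the change was -0.73 with day 1 replicate 3 left out, and normexp gave 0.11. miR-204, which shares the seed of miR-211 and lies in Trpm3, gave -0.20 ± 0.16 (adjusted p = 0.345). Above 0 were miR-138 at 0.22 ± 0.16 and miR-338*, the other arm of the miR-338 hairpin, at 0.10 ± 0.17 (adjusted p = 0.303 and 0.67). In all, 2 of 5 tested glial miRNAs fell and none rose, against 23.3% and 21.9% overall. Under quantile normalisation and in the deposited values 1 of the 5 fell, and without scaling 3 did.

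Of 9 tested neuronal miRNAs, 3 rose and none fell, against 21.9% and 23.3% of all tested miRNAs. miR-124, the most abundant miRNA of the brain, went from -3.44, -3.28 and -2.93 to -2.09, -1.91 and -2.22 (1.15 ± 0.16; adjusted p = 0.00186). miR-137 went from -3.85, -3.73 and -3.29 to -2.80, -2.33 and -2.68 (1.02 ± 0.19; adjusted p = 0.00618), and miR-7a changed by 0.86 ± 0.10 (adjusted p = 0.000991). These calls held in all 21 alternatives. The median over the 9 was -0.11, and the other members lay close to or below 0.

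The miR-183 cluster of chromosome 4, which is abundant in sensory neurons and sensory receptor cells, rose with all 3 members, against 21.9% of all tested. miR-182 went from -4.13, -4.10 and -3.71 to -2.91, -2.61 and -2.76 (1.22 ± 0.15; adjusted p = 0.00104), while miR-96 changed by 0.64 ± 0.18 and miR-183 by 0.42 ± 0.14 (adjusted p = 0.0279 and 0.0419). The calls of miR-96 and miR-183 ended without day 0 replicate 2 or any 1 of the 3 day 1 arrays (adjusted p up to 0.0782 and 0.137), and that of miR-183 also without day 0 replicate 1. For miR-182 the call held in all 21 alternatives, and without scaling it was the only one of the 3 to rise.

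In the vessel wall and connective tissue list 1 of 5 tested members rose and 3 fell, against the same 21.9% and 23.3% overall. miR-145, a miRNA of smooth muscle, rose from -2.55, -2.43 and -2.42 to -1.63, -1.58 and -1.74 (0.81 ± 0.10; adjusted p = 0.001). Its neighbour in the same cluster on chromosome 18, miR-143, gave 0.04 ± 0.10 and did not pass (adjusted p = 0.747). The fibroblast miRNAs of the miR-199a and miR-214 locus fell. miR-199a-3p went from 2.67, 2.73 and 2.66 to 2.18, 2.23 and 1.90 (-0.58 ± 0.12; adjusted p = 0.0088). miR-214 and miR-199a-5p changed by -0.37 ± 0.09 and -0.36 ± 0.12 (adjusted p = 0.0173 and 0.0455), and both calls ended without day 0 replicate 2 or day 1 replicate 1 or 3 (up to 0.1 and 0.164), that of miR-199a-5p also without day 0 replicate 1 or 3. Of the endothelial hairpin miR-126, the less abundant arm miR-126* fell by 0.55 ± 0.11 on the log2 scale (adjusted p = 0.00939), and miR-126 gave -0.23 ± 0.09 (adjusted p = 0.0687).

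The imprinted Dlk1-Dio3 region, a large miRNA locus of chromosome 6 that is active in embryonic tissue and neurons, changed in both directions. Of its 32 tested miRNAs 4 rose and 11 fell, against 21.9% and 23.3% of all tested, and the median change was -0.19. Without scaling 2 rose and 21 fell. miR-299 fell most, from -2.10, -2.14 and -2.28 to -2.88, -2.73 and -3.03 (-0.71 ± 0.11; adjusted p = 0.00354). miR-376c, miR-136, miR-379 and miR-411 changed by -0.65 ± 0.15, -0.62 ± 0.16, -0.55 ± 0.13 and -0.49 ± 0.12 (adjusted p of 0.0134 to 0.0216), and each of these 4 calls ended without day 0 replicate 2 or day 1 replicate 1 or 3 (up to 0.0776). On the other side miR-341 went from -4.10, -3.95 and -3.97 to -3.06, -3.00 and -3.28 (0.89 ± 0.11; adjusted p = 0.00113). miR-323 rose by 0.76 ± 0.14 (adjusted p = 0.00618) and miR-494 by 0.66 ± 0.17 (adjusted p = 0.0216), the latter only with day 0 replicate 2 and day 1 replicates 1 and 3 all included (up to 0.0749). miR-409-5p, a weak arm, gave -0.65 ± 0.16 (adjusted p = 0.017), lost its call without day 1 replicate 1 or 3 (up to 0.0619) and changed sign with normexp (0.17).

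Several other large rises were of miRNAs outside the groups above, and most of these were faint on day 0. miR-760-3p, detected on no day 0 array, was at -8.52, -7.60 and -7.40 there and at -5.38, -5.46 and -5.66 on day 1. Its bound was 3.06-fold higher (adjusted p = 0.001 for the fitted change). miR-188 went from -5.67, -6.24 and -4.07 to -3.14, -3.18 and -2.74 (2.31 ± 0.50; adjusted p = 0.0123), and miR-327 from -7.15, -5.76 and -4.59 to -4.17, -3.59 and -3.82 (1.98 ± 0.57; adjusted p = 0.0317). Each was detected on only 1 of the 3 day 0 arrays, so its day 0 mean rests mostly on signal below detection. Day 0 replicate 3 was the highest day 0 array for both, and without it the changes were 2.93 and 2.60. Without day 0 replicate 1 that of miR-327 was 1.32. The call of miR-188 ended without day 1 replicate 3 (adjusted p = 0.0532), and that of miR-327 without day 0 replicate 2 or any 1 of the day 1 arrays (up to 0.0976). miR-30c-1* rose by 1.54 ± 0.29 (adjusted p = 0.00774) and held its call in all 21 alternatives. miR-874 changed by 1.07 ± 0.28 (adjusted p = 0.0216), a call that ended without any 1 of the 3 day 1 arrays (up to 0.0655), and miR-193 by 1.02 ± 0.14 (adjusted p = 0.00189).

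The remaining large falls were of miR-33, which lies in Srebf2 and restrains cholesterol export, and of miR-301a. miR-33 went from -4.96, -5.05 and -4.30 to -5.65, -5.15 and -5.47 (-0.65 ± 0.22; adjusted p = 0.0489), but its call ended without day 0 replicate 3 or day 1 replicate 1 or 3 (up to 0.146), its change was -0.42 without day 0 replicate 3, and normexp turned its sign (0.074). miR-301a changed by -0.65 ± 0.18 (adjusted p = 0.0268), a call that ended without day 1 replicate 1 or 3 (up to 0.0912). Among single miRNAs with a known inducer, the hypoxia-induced miR-210 rose by 0.40 ± 0.13 (adjusted p = 0.0419), and only day 0 replicate 3 could be left out without ending that call (up to 0.121).

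For some cell types no miRNA passed, and the arrays of a group differed widely. The muscle miRNAs miR-1, miR-133a, miR-133b and miR-206 were much higher on day 0 replicate 1 than on the other day 0 arrays. miR-1, for example, read 3.49, -1.31 and -0.43 on day 0 and 1.13, -0.02 and 1.29 on day 1 (0.22 ± 1.15; adjusted p = 0.905). The summed signal of the 5 tested muscle miRNAs was 10401 intensity units on day 0 replicate 1 against 447 and 756 on the other day 0 arrays and 934 to 2113 on day 1. Without day 0 replicate 1, miR-1, miR-133a, miR-133b and miR-206 passed as rises, by 1.67, 1.91, 2.12 and 2.39 (adjusted p of 0.000397 to 0.00779). The remaining tested muscle miRNA, miR-499, lay below 0 with all arrays in, at -0.36 ± 0.17 (adjusted p = 0.137). In each other scaling (75th percentile over all miRNAs, quantile, none, deposited values) 1 of the 5 muscle miRNAs fell and 0 rose. The erythrocyte miRNAs varied as well: miR-451 read 2.30, 1.86 and -0.20 on day 0 and 2.20, 3.29 and 3.65 on day 1 (1.72 ± 0.67; adjusted p = 0.0717), and miR-144 gave 1.18 ± 0.65 (adjusted p = 0.181). Leaving out the same array raised these changes to 2.21 and 1.61 (adjusted p = 0.0115 and 0.0457), whereas leaving out day 0 replicate 3 lowered them to 0.96 and 0.58 (adjusted p = 0.0991 and 0.431). The part of muscle and blood in the other changes was not tested.

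The arms of a hairpin come from 1 transcript, and 30 pairs of arms were both tested. Both arms rose in 2 pairs and both fell in 6. No pair had opposite calls, and 18 of the 30 had the same sign. The pairs that rose were those of miR-21 and miR-142. The pairs that fell were those of miR-322, miR-542, miR-199a, miR-379, miR-136 and miR-99a. However, normexp gave 0.041 for miR-379* and 0.068 for miR-99a*. Both calls ended without day 0 replicate 2 or 3 or day 1 replicate 1 or 3 (adjusted p up to 0.142 and 0.126). That of miR-99a* also ended without day 1 replicate 2. The calls of miR-99a and miR-136* ended on leaving out any array but day 1 replicate 2 (up to 0.145 and 0.116). Limits of other arms in these pairs are given above. In other pairs the arms differed in size: miR-30c gave -0.12 ± 0.12 (adjusted p = 0.448) where its arm miR-30c-1* rose by 1.54, and miR-125a-5p gave -0.15 ± 0.11 (adjusted p = 0.319) where miR-125a-3p rose by 0.81 ± 0.12 (adjusted p = 0.00269). A difference between arms was not tested, and miR-30c is cut from 2 hairpins.

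The miRNAs with the highest signal were nearly the same in both groups. Of the 10 that took the largest share of the signal, together 49.9% on day 0 and 46.9% on day 1, 9 were shared, and miR-21 took the place of let-7b. Besides let-7 and miR-338 they were miR-125b-5p (7.97% on day 0 and 7.71% on day 1), miR-23a, miR-23b, miR-26a and miR-16, whose changes of -0.16 to -0.02 did not pass.

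Different probes of a miRNA mostly agreed in direction. All probes changed one way for 43 of the 46 rises and for 44 of 48 falls with more than 1 probe value, against 87 of 114 miRNAs without a call. A call rests on the mean of the same probes, so agreement among called miRNAs is partly built in. Composition differed between the calls: the median share of G and C was 48% in the 43 rises with a sequence, 41.9% in the 42 falls and 45.5% in the 98 others. Over these 3 sets the correlation of the GC share with the change was 0.27 (Pearson) and 0.28 (Spearman), a description across miRNAs that share arrays and labelling. Its part in the calls was not tested.

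**Figure D4:**
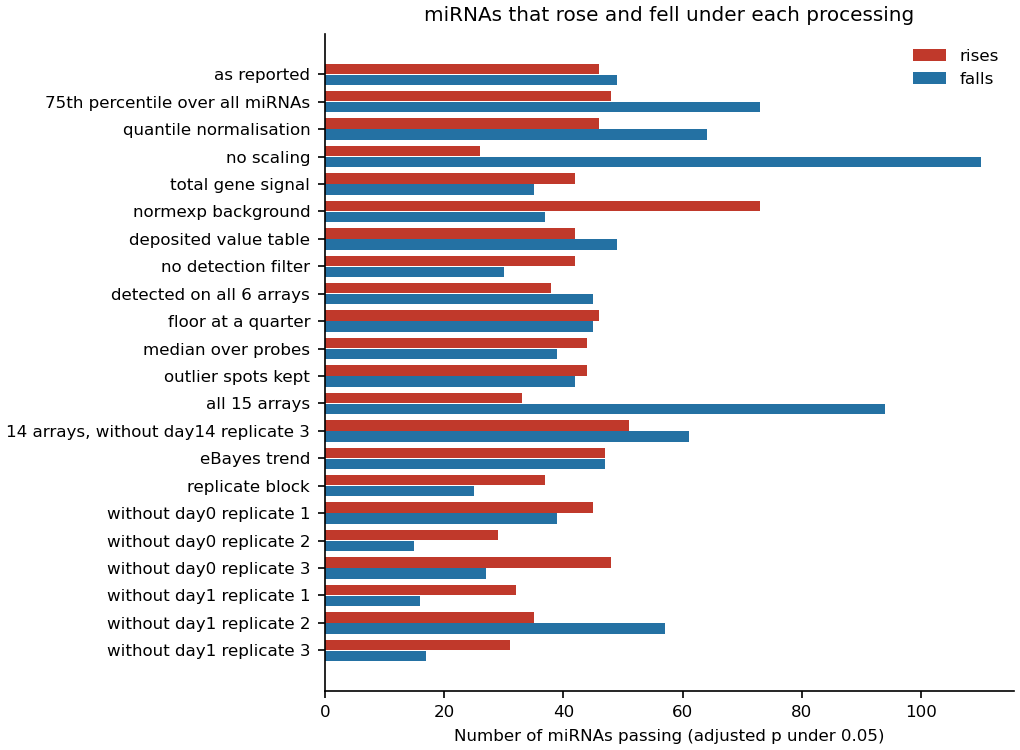
Number of miRNAs that rose (red) and fell (blue) at an adjusted p under 0.05 (x axis), as reported and under each of the 21 alternatives (y axis). Rises range from 26, without scaling, to 73, with normexp, and falls from 15, without day 0 replicate 2, to 110, without scaling.

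Later days of the same series, scaled together over 14 arrays without day 14 replicate 3, on which 49.1% of miRNAs were detected, show where day 1 stood in the course. Differences between day 1 and later days were not tested, and day 14 has 2 arrays here. Of the 46 rises, 24 had their highest mean on day 1 among the injured days, and of the 49 falls 23 had their lowest mean there. These miRNAs were called on the same day 1 arrays, which favours day 1 as the extreme, and the share over all tested miRNAs was not counted. Day 1 also lay on a slide and scan of its own, with bright corner spots at 86.1 to 113 against 868 to 2320 on the other days. The part of this in the courses below was not tested. miR-223 was at 1.68 ± 0.36 (SD, n = 3) on day 1 and at 0.97 ± 0.13 on day 4, 0.64 ± 0.03 on day 7 and -0.15 ± 0.19 on day 14, against -0.32 ± 0.08 on day 0. miR-145, miR-182 and miR-124 were also higher on day 1 than on any later day, and by day 14 all 3 were below their day 0 mean. miR-21 continued from 3.99 ± 0.16 on day 1 to 5.45 ± 0.23 on day 4 and 5.62 ± 0.01 on day 7. miR-31 went from -4.32 ± 0.19 on day 1 to -1.52 ± 0.24 on day 4.

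Among the falls, some means returned by day 4 and others went on down. miR-322 was at -1.16 ± 0.11 on day 1 and at -0.24 ± 0.13 on day 4, above its day 0 mean of -0.49 ± 0.07. miR-542-3p went from -2.90 ± 0.08 on day 0 to -3.78 ± 0.24 on day 1 and -2.42 ± 0.22 on day 4. miR-98 went on from -0.38 ± 0.17 on day 1 to -0.59 ± 0.05 on day 4, and miR-338 went from 3.82 ± 0.25 on day 1 to 3.31 ± 0.12 on day 4.

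**Figure D5:**
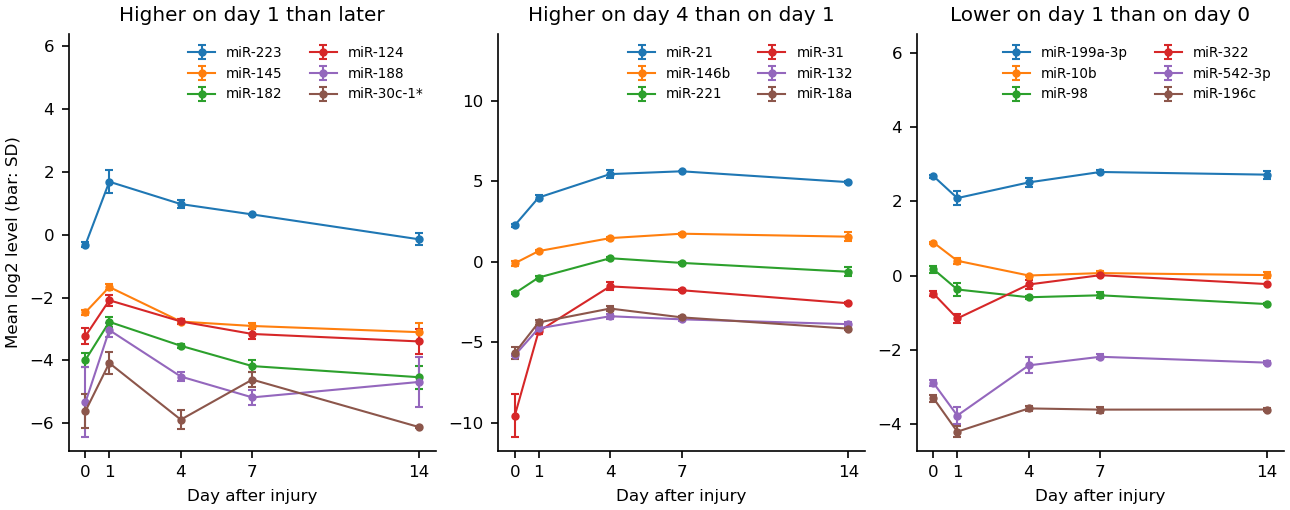
Mean log2 level with SD (y axis) by day after injury (x axis) over 3 arrays per day, 2 on day 14, for miRNAs with day 1 above later days (left), day 4 above day 1 (middle) and day 1 below day 0 (right). miR-223 peaks on day 1 at 1.68, miR-21 and miR-31 are higher on day 4 than on day 1, and miR-322 and miR-542-3p are lowest on day 1.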

How the data were processed

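The deposited array files hold 1-colour intensity values from Agilent Feature Extraction 10.7.3.1, background-subtracted per spot and not scaled between arrays, per the file headers. The deposited value table holds log2 values, found by comparing it with the arrays' total gene signals, and it served as an alternative. How the authors scaled it is not given in the sources used here. Its columns share a median of 4.12, except that of day 14 replicate 3 at 0.83. Outlier and control spots were left out, spots were averaged per probe and probes per miRNA, and each array's 75th percentile, from the 191 miRNAs that all 6 arrays detected, set its scale. Values were floored at 0.00273, the lowest of any detected miRNA, and log2-transformed. The 210 miRNAs were tested in limma 3.58.1 (R 4.3.3) with 2 group means and Benjamini-Hochberg adjustment at 0.05, two-sided; errors are standard errors unless SD is written. Residual and prior degrees of freedom were 4 and 3.17. The limma step was tested on simulated data. Only 3 arrays per group limit the precision. Array names are old miRBase names, in which * marks the less abundant arm, and their arms were matched to current names by hand.

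Named are the 15 largest rises and falls with separate groups, miRNAs detected in 1 group only, the 10 with the most signal, arms, seed families and up to 5 members per list, some of them as counts. Members, lists and this rule were chosen with earlier results of these data known. The lists not described gave these rises and falls of tested members, against 21.9% and 23.3% of all tested: miR-99/100/125 1 and 2 of 8, miR-23/24/27 0 and 0 of 6, miR-29 1 and 0 of 4, miR-30 2 and 0 of 9, miR-34 0 and 0 of 1, miR-181 0 and 0 of 4, miR-26 0 and 1 of 2, miR-130/301 0 and 1 of 2, miR-148/152 0 and 2 of 2, cartilage and matrix 1 and 0 of 2, epithelium 0 and 0 of 2, liver and pancreas 0 and 1 of 2. The alternatives changed the scaling, background, filter, floor, probes, arrays and fit. The files hold no mean spot signal, so the normexp alternative (offset 50) used the median signal. Whether equal replicate numbers pair arrays could not be told from 3 arrays per group. Correlations of their deviations were 0.29, 0.68 and -0.40 for equal numbers and -0.69 to 0.43 for unequal ones.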

Additional observations from a re-analysis of the deposited data

How the results depend on the processing

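The median over all tested miRNAs moved from -0.03 to -0.39 without scaling, -0.25 with all 15 arrays and 0.10 with normexp. Rises numbered 26 without scaling and 73 with normexp, against 46. Falls numbered 110 without scaling, 94 with all 15 arrays and 30 with no detection filter, against 49. With the replicate number as a block 62 miRNAs passed in place of 95, and 25 fell; the numbers share no origin in the labels. Leaving out 1 array in turn gave 44 to 92 passing, 29 to 48 rises, 15 to 57 falls and medians of -0.09 to 0.03. The cause of these shifts was not tested.

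Of the 75 passing miRNAs followed by name, 30 kept their call in all of the alternatives that tested them and 8 changed sign in at least 1. With normexp the changes were 0.11 for miR-211, 0.074 for miR-33, 0.14 for let-7d*, 0.17 for miR-409-5p, 0.041 for miR-379* and 0.068 for miR-99a*. Without scaling miR-106b gave -0.058. For let-7a the change was 0.046 with quantile normalisation and 0.039 in the deposited values. Among miRNAs that did not pass, let-7c gave 0.024 in each of these 2 alternatives, normexp gave 0.071 for miR-20b-5p and 0.10 for miR-503, and without scaling miR-25, miR-1 and miR-150 gave -0.15, -0.14 and -0.23. With all 15 arrays these 3 gave -0.00438, -0.000504 and -0.087. With 1 array left out, the range was -0.23 to 0.038 for miR-20b-5p, -0.17 to 0.088 for miR-503, -0.14 to 0.0047 for miR-26a and -0.078 to 0.025 for miR-16. For the muscle miRNAs it was -0.73 to 1.67 for miR-1, -0.038 to 1.91 for miR-133a, -0.22 to 2.12 for miR-133b and -0.19 to 2.39 for miR-206. Faint miRNAs lie near the background, where the floor and the background correction set the size of a change: that of miR-31 was 0.67 with normexp and 5.37 with a lower floor, and it passed in both.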
